A study of Mus musculus with 6 samples.

Results

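Colony-stimulating factors are secreted proteins that keep myeloid cells alive and drive their growth and maturation. The group examined here holds 8 genes chosen by symbol: the ligands Csf1, Il34, Csf2 and Csf3, and the receptor genes Csf1r, Csf2ra, Csf2rb and Csf3r. Of the 28043 genes in the tables, 7 were members, and Csf2 was not analysed here. All 7 passed the filter on low counts that left 15766 genes for testing.

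The samples were 3 PVR and 3 Normal libraries of polyadenylated RNA. The labels give the cells as primary retinal pigment epithelium (RPE) of the mouse eye, a pigmented sheet that supports the photoreceptors. PVR, proliferative vitreoretinopathy, is a scarring disorder of the injured eye, described as traumatic in the study's title. The sources used here do not give the strain, sex or age of the mice, the way PVR was induced, the time after it or whether cells were cultured or animals pooled. Nothing in the labels says that the replicates came from separate animals, so a p-value reflects no more than the variation among these 6 libraries, and that may be technical.

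CSF1 and IL-34 are unrelated in sequence but bind the same receptor, the tyrosine kinase CSF1R (CD115), which macrophages, microglia and osteoclast precursors need. GM-CSF, the product of Csf2, binds a receptor made of a specific alpha chain (Csf2ra) and a beta chain (Csf2rb) that is shared with the receptors for interleukin 3 and interleukin 5. G-CSF, the product of Csf3, binds a homodimer of the Csf3r product, which is best known from neutrophils and their precursors. In the retina, IL-34 is known mainly as a neuronal product on which part of the resident microglia depends.

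Between 15269983 and 19173187 reads were assigned to genes in each library. Levels below are normalised read counts, that is reads divided by 1 size factor per library, and a count of 0 reads would still allow 2.72 to 3.42 of them (3 reads, counting error only). RPE markers, the markers of the labelled cell type, were abundant. Their 17 genes summed to 715114 to 807384 in PVR and 1022020 to 1119020 in Normal, with Ttr alone averaging 302541 and 262990. Genes listed as Muller glia and astrocyte markers were abundant as well (326301 to 374033 in PVR, 263144 to 295583 in Normal), led by Clu, Apoe and Glul. Markers of other cells differed between the groups too. Of 25 macrophage and microglia markers 24 rose, and their summed level was 36985 to 103222 in PVR and 1318 to 2866 in Normal, with none of them at 0 reads in either group. Of 10 fibroblast markers 9 rose, while 17.9% of all genes tested were called higher. The part of these cells in the results below was not tested, and in bulk RNA a change in the number of cells of a type cannot be told apart from a change in RNA per cell.

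Of the 7 measured members 6 rose in PVR and 1, Csf1r, fell (limma on log2(normalised count + 1), Benjamini-Hochberg adjusted p under 0.05 over all genes tested). Over all genes tested 17.9% were called higher and 12.9% lower. The median log2 change of the members, PVR minus Normal, was 1.95, against -0.02 over all genes tested. The 3 PVR values lay wholly on one side of the 3 Normal values for each of the 7 members, above for 6 and below for 1. Over all genes tested the PVR values lay wholly above for 24.7% and wholly below for 23.3%, together 48%.

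**Figure D1:**
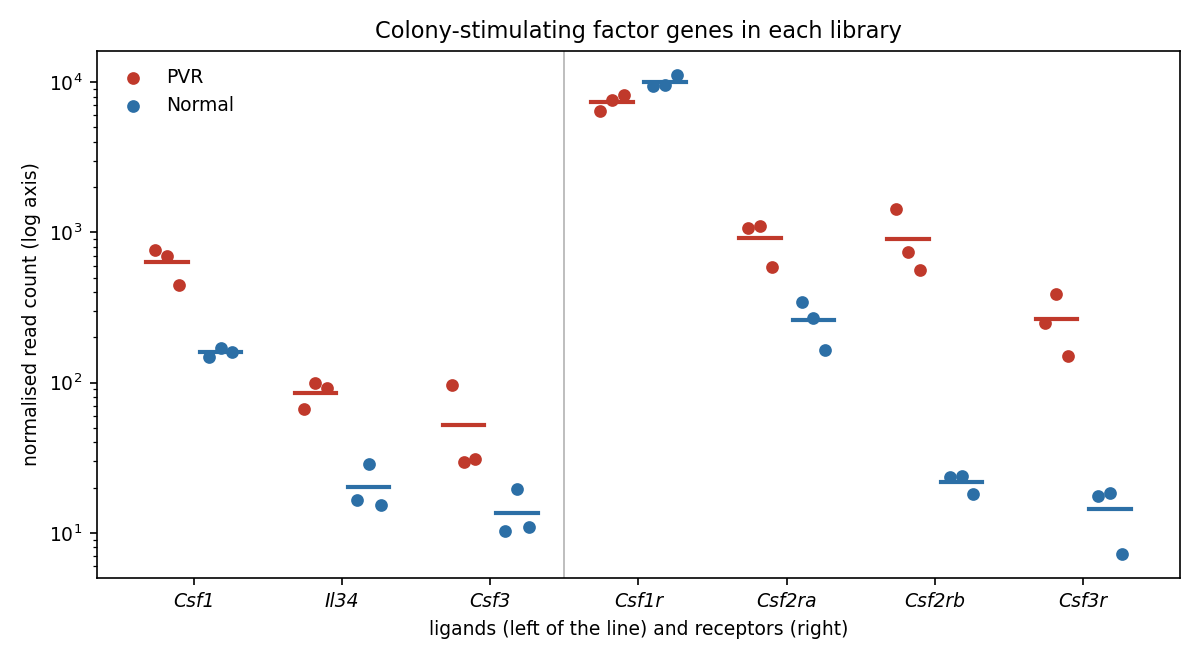
Normalised read count (log axis) of the 7 measured members in each library, PVR in red and Normal in blue, with a line at each group's mean. Ligands stand left of the grey line and receptors right of it, and Csf1r is the one gene whose PVR points lie below its Normal points.

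Csf1, the ligand that most macrophages depend on (chromosome 3, 107741048 to 107760469, minus strand; GENCODE M21, GRCm38), had 759, 691 and 446 normalised counts in PVR replicates 1 to 3, against 147, 170.4 and 159.5 in Normal replicates 1 to 3. The lowest PVR library was thus above the highest Normal library, and PVR replicate 3 was the lowest of its group. The means were 632 ± 165 in PVR and 159 ± 11.5 in Normal (SD, n = 3 each), a 3.97-fold difference (log2 change 1.95, SE 0.20, limma adjusted p = 0.000151). No 50-base stretch of a Csf1 transcript was found in a transcript of another gene.

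The start regions of Csf1, Csf2ra and Csf3r are shown because inducible and myeloid genes are often read through short sites near the start. Of the members that rose, only these had a matched window. RefSeq windows (GRCm38.p6) of 250 bases before and 50 after the gene start were matched by symbol for 3 of the 6 measured members other than Csf1r. Each is printed 5′ to 3′ on the gene's strand. Capitals mark GAGGAA, the core bound by PU.1 (the product of Spi1), and, in the Csf1 window alone, a site of the NF-kB family in its consensus spelling as read on the other strand. Both were searched on both strands. The windows are chr3:107760420-107760719 (minus strand) for Csf1, chr19:61228369-61228668 (minus strand) for Csf2ra and chr4:126024409-126024708 (plus strand) for Csf3r.
Csf1: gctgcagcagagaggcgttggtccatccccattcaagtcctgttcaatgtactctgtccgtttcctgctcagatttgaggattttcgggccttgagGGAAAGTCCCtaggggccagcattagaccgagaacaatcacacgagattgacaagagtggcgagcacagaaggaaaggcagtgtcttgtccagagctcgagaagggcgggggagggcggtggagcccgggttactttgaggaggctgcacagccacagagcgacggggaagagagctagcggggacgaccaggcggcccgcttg
Csf2ra: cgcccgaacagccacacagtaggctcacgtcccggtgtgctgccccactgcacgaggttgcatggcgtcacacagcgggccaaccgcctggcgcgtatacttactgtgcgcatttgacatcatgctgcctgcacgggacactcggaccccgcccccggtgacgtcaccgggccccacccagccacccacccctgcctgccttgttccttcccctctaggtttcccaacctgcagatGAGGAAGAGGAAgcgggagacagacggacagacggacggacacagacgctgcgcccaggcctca
Csf3r: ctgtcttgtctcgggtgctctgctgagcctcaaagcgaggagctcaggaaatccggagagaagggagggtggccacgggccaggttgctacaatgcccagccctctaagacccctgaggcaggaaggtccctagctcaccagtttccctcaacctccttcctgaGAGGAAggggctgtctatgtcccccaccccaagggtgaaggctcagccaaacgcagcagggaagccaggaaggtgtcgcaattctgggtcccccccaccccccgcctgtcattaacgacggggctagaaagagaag

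The Csf1 window held the NF-kB letters once, on the other strand, beginning 154 bases before the start, and these letters were present in 0.155% of all 32851 windows of the same length. The Csf2ra window held GAGGAA in 2 adjoining copies, beginning 14 and 8 bases before the start, and the Csf3r window held it once, 86 bases before the start. The start here is that of RefSeq. For Csf2ra and Csf3r the GENCODE gene begins farther upstream. The Csf3r match and the Csf2ra copy at 8 bases lie inside that gene. At least 1 copy was present in 28.3% of all windows. The 2 motifs do not overlap. The motifs were chosen with the sequences in view, so the shares of windows do not measure how unusual these matches are. A match describes letters and not a bound site.

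Il34, the second ligand of CSF1R (chromosome 8, 110741829 to 110805924, minus strand), had 66.9, 99.1 and 91.6 normalised counts in PVR, against 16.5, 28.7 and 15.4 in Normal. These rest on 65 to 97 reads in PVR and 16 to 31 in Normal, and the groups did not overlap. Its mean was 85.9 ± 16.8 in PVR and 20.2 ± 7.39 in Normal (log2 change 2.07, SE 0.33, limma adjusted p = 0.00148). The antisense gene Gm15895, named after its values were seen, shares 75 exon bases with Il34 (3.83% of its exon bases) and also had more reads in PVR (18.5, 15.9 and 13.2 normalised counts, against 1.03, 1.85 and 0.906 in Normal). Strand use in the counting is not stated, so reads from the shared bases cannot be told apart.

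The balance of the CSF1R ligands did not differ detectably. The log2 ratio of Csf1 to Il34 was 3.48, 2.79 and 2.27 in PVR and 3.08, 2.53 and 3.29 in Normal. The groups overlapped, with means of 2.85 ± 0.61 in PVR and 2.97 ± 0.39 in Normal (SD, n = 3 each). The difference was -0.12 (two-sided exact permutation test, p = 0.8, where 3 against 3 cannot go below 0.1), and its sign turned without PVR replicate 3 (0.169) or Normal replicate 3 (0.0415). Per kilobase of exon, Csf1 averaged 119.7 normalised counts in PVR and 30.1 in Normal, and Il34 averaged 43.8 in PVR and 10.3 in Normal.

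Csf3, which encodes the neutrophil growth factor G-CSF (chromosome 11, 98701263 to 98703629), had 95.8, 29.6 and 31.2 normalised counts in PVR, against 10.3, 19.4 and 10.9 in Normal. The groups lay apart, but PVR replicate 1 alone was far above the rest. These values rest on 26 to 93 reads in PVR and 10 to 21 in Normal. The means were 52.2 ± 37.8 in PVR and 13.5 ± 5.12 in Normal (log2 change 1.71, SE 0.50, limma adjusted p = 0.028). The call was lost without PVR replicate 1 (log2 change 1.16, limma adjusted p = 0.104), Normal replicate 1 (0.093) or Normal replicate 3 (0.0841), with replicates 1 and 2 only (0.082) and by limma-voom (0.0581).

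Csf1r (chromosome 18, 61100598 to 61132149, plus strand) was by far the most abundant member. It had 6367, 7575 and 8235 normalised counts in PVR, against 9343, 9591 and 11181 in Normal. Each PVR library was below each Normal library. The means were 7392 ± 947 in PVR and 10038 ± 998 in Normal, so that PVR held 0.736 of the Normal level (log2 change -0.44, SE 0.13, limma adjusted p = 0.0255). The direction held in all 17 alternatives run, but the call was lost without PVR replicate 1 (limma adjusted p = 0.0935), PVR replicate 2 (0.053) or Normal replicate 3 (0.0858).

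**Figure D2:**
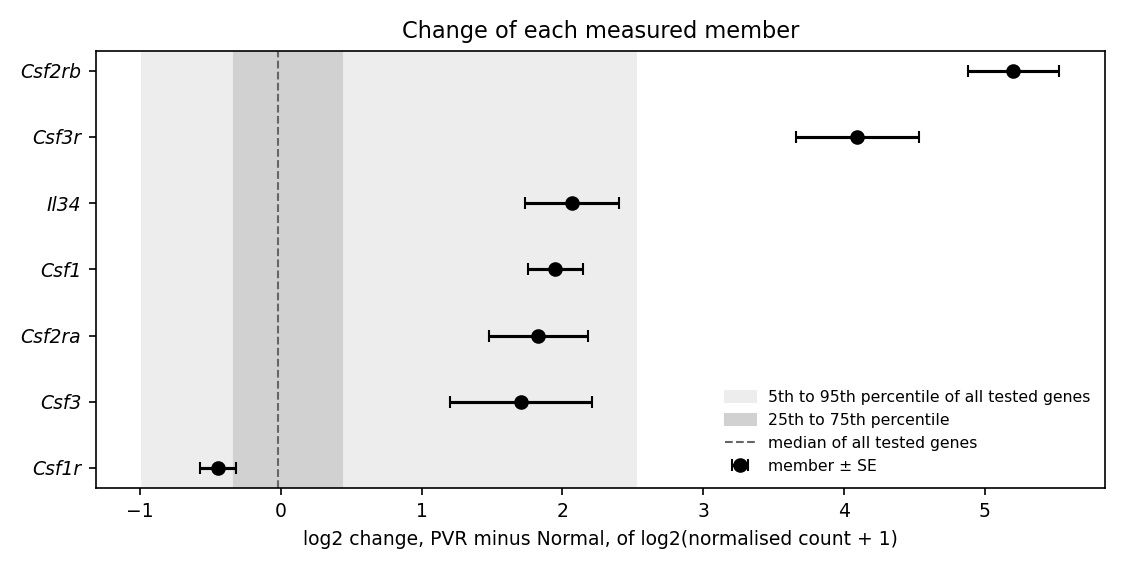
Log2 change (PVR minus Normal, of log2(normalised count + 1)) of each measured member with its standard error. The shaded bands and the dashed line show the spread and median over all tested genes, and Csf1r, at -0.44, is the one member left of that median.

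Per kilobase of exon, Csf1r stood at 1103, 1312 and 1426 normalised counts in PVR and 1618, 1661 and 1936 in Normal. In Normal only 340, 311 and 295 of 27362 genes with a known length had a higher level per kilobase in replicates 1 to 3. In PVR 646, 449 and 403 genes were higher. Csf1r took 0.0353%, 0.0436% and 0.0491% of all reads in PVR and 0.0569%, 0.0606% and 0.0643% in Normal.

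Csf1r stood above the other macrophage and microglia genes in Normal libraries. All 25 macrophage and microglia markers were below Csf1r per kilobase in each Normal library, whereas 17, 16 and 21 were below it in PVR replicates 1 to 3. Lyz2, which encodes lysozyme, was the highest of these markers in PVR (12906 to 40634 per kilobase), and in Normal the highest marker reached 592, 286 and 243 in replicates 1 to 3. The median marker stood at 508, 527 and 210.1 per kilobase in PVR and 18.8, 11.2 and 9.36 in Normal.

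**Figure D3:**
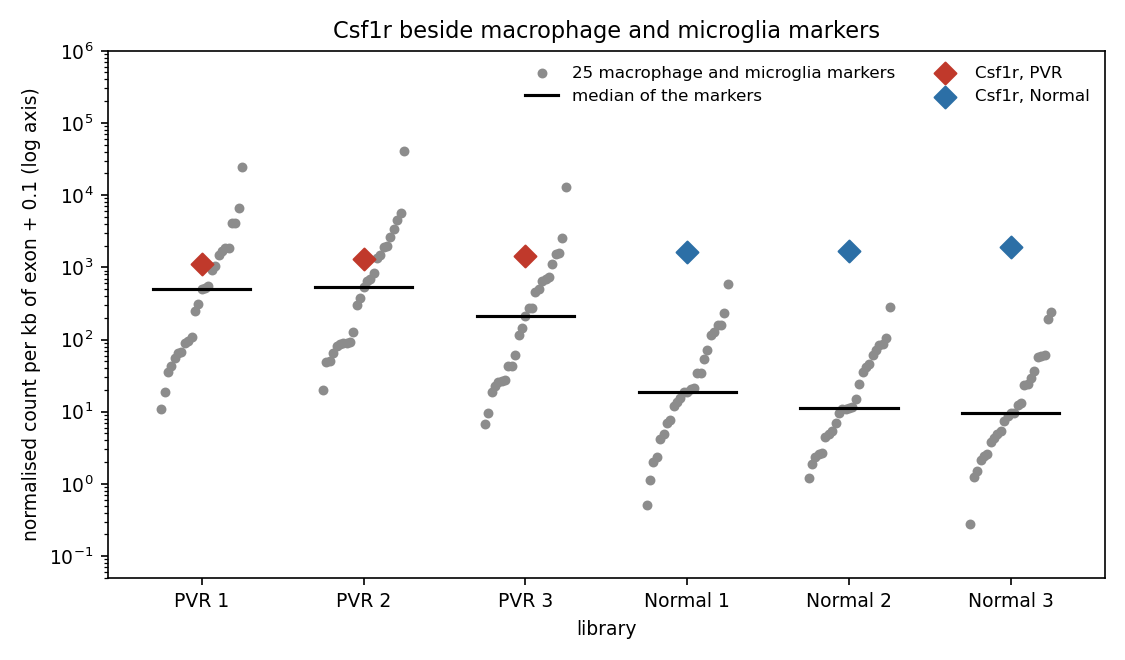
Normalised count per kilobase of exon plus 0.1 (log axis) of Csf1r (diamonds) and of the 25 macrophage and microglia markers (grey points, with a line at their median) in each library. In the 3 Normal libraries Csf1r lies above all 25 markers, and in the 3 PVR libraries it lies among them.

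Ptprc, which encodes the leukocyte surface protein CD45, and Spi1 are named after their values were seen. The ratio of Csf1r to Ptprc per kilobase was 31.2, 26.9 and 76.4 in PVR and 846, 746 and 1701 in Normal. For the myeloid transcription factor gene Spi1 the same ratio was 5.04, 8.39 and 18.8 in PVR and 163, 345 and 319.9 in Normal. The log2 level of Csf1r minus the mean log2 level of the 25 markers was 2.71, 2.66 and 4.17 in PVR and 7.44, 7.94 and 8.64 in Normal. The groups did not overlap, and the difference was -4.83 (two-sided exact permutation test, p = 0.1, the smallest that 3 against 3 allows). It ranged from -5.32 to -4.51 when single libraries were left out. Csf1r fell and 24 of the 25 markers rose, so this separation was fixed in advance and the test adds nothing to those changes.

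PVR replicate 3 had the lowest summed macrophage marker level of its group (36985, against 77877 and 103222 in PVR replicates 1 and 2) and the highest Csf1r level of its group. RPE markers fell in PVR as a list, with 10 of 17 lower, 1 higher and a median log2 change of -0.64. Among all genes tested 12.9% were lower. The 3 most abundant RPE markers differed. Ttr was not called (log2 change 0.20, limma adjusted p = 0.215), while Rgr (-0.93) and Rlbp1 (-0.98) fell. Rpe65, a visual cycle enzyme gene named after its values were seen, had a log2 change of -1.46. Which cells the Csf1r reads came from was not tested. The 3 tested genes with the most similar pattern to Csf1r over the 6 libraries, among 11980 genes with a mean of at least 50 normalised counts, were Klhl5 (Pearson r = 0.997), Hdgfl3 (0.997) and Rprd1b (0.996). None of them is on the macrophage list, but 24 of those 25 genes rose while Csf1r fell, so this was fixed in advance. The coefficient describes likeness over libraries that share their condition, and no test goes with it.

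Some reads counted for Csf1r may belong to Hmgxb3, on the opposite strand. The genes share 873 exon bases, 15.1% of the Csf1r exon bases. Hmgxb3 had 694, 792 and 785 normalised counts in PVR and 778, 691 and 889 in Normal, all below every Csf1r value. Its log2 change was -0.05 (limma adjusted p = 0.793).

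Csf2ra, the GM-CSF binding chain (chromosome 19, 61223957 to 61228429, minus strand), had 1072, 1099 and 588 normalised counts in PVR, against 345, 269 and 165 in Normal. The groups did not overlap, and replicate 3 was the lowest of either group. The means were 919.8 ± 287 in PVR and 259.6 ± 90.5 in Normal (log2 change 1.83, SE 0.35, limma adjusted p = 0.00977). No 50-base stretch of a Csf2ra transcript was found in another gene.

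Csf2rb, the signalling beta chain (chromosome 15, 78325752 to 78353847, plus strand), had 1419, 743 and 559 normalised counts in PVR, against 23.7, 24.1 and 18.1 in Normal. It showed the largest change among the members, 41.3-fold between means of 907 ± 453 in PVR and 22.0 ± 3.33 in Normal (log2 change 5.20, SE 0.32, limma adjusted p = 3.05e-05). The mouse carries a near copy, Csf2rb2, whose product serves interleukin 3 alone. Of the 50-base stretches of Csf2rb transcripts, 12.3% occur in Csf2rb2 too, and reads from those stretches could have been counted for either gene. Csf2rb2 had 601, 437 and 259.7 normalised counts in PVR and 12.4, 17.6 and 13.6 in Normal (log2 change 4.74, limma adjusted p = 2.56e-05). The pair summed to 2020.3, 1180 and 819 in PVR and 36.1, 41.7 and 31.7 in Normal. How reads were assigned between them was not tested.

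The chains of the GM-CSF receptor were unevenly represented in Normal. Per kilobase, Csf2ra was 1.91, 3.75 and 2.67 times Csf2rb in PVR and 36.9, 28.3 and 23.1 times in Normal. Csf2ra averaged 320.4 per kilobase in PVR and 90.4 in Normal, and Csf2rb averaged 125 in PVR and 3.02 in Normal.

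Csf3r, the G-CSF receptor (chromosome 4, 126024550 to 126044440, plus strand), had 250.2, 389.5 and 150.2 normalised counts in PVR, against 17.5, 18.5 and 7.25 in Normal. The lowest PVR library was far above the highest Normal one, with 159 to 342 reads in PVR and 8 to 20 in Normal. The means were 263 ± 120.2 in PVR and 14.4 ± 6.24 in Normal, an 18.2-fold difference (log2 change 4.09, SE 0.44, limma adjusted p = 0.000261). Of the 50-base stretches of its transcripts, 10.8% occur in other annotated genes.

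Neutrophil markers were present at low levels beside Csf3r. The 14 neutrophil markers in the tables summed to 426 to 854 normalised counts in PVR and 35.3 to 59.8 in Normal. In PVR most of the sum was Lcn2, which encodes an iron-binding protein that other cells also make (559, 566 and 305 in PVR, 2.06, 6.48 and 1.81 in Normal). In Normal the largest share was Padi4 (18.5, 39.9 and 17.0 in PVR, 27.8, 28.7 and 30.8 in Normal, limma adjusted p = 0.591). The granule and chemokine receptor genes Ngp, Ltf, Retnlg and Cxcr2 were at 0 reads in all 3 Normal libraries. Reads were few in PVR too, with 2, 0 and 6 for Ngp and 10, 2 and 0 for Retnlg in replicates 1 to 3. Other markers were called higher. Il1r2 had 110, 56.9 and 32.1 normalised counts in PVR and 12.4, 9.26 and 0.906 in Normal (limma adjusted p = 0.0154). S100a8 had 50, 15 and 17 reads in PVR and 3, 0 and 0 in Normal (0.0036). S100a9 had 56, 29 and 27 in PVR and 6, 3 and 1 in Normal (0.00239). Ngp, Ltf, Retnlg, Cxcr2, S100a8 and S100a9 are named after their values were seen. Of the 6 neutrophil markers tested, 5 rose, and 3 with a filter at 1 CPM in 3 libraries. A marker near the floor in Normal, such as Lcn2 (2, 7 and 2 reads), could pass the filter only through PVR. The count of risen markers is therefore tilted toward a rise. The part of neutrophils in the Csf3r result was not tested.

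Ordered by level per kilobase in PVR, the members and the near copy ran Csf1r, Csf2ra, Csf2rb, Csf1, Csf2rb2, Csf3r, Il34 and Csf3. Csf1r stood apart from Csf2ra, and Csf2ra from Csf2rb, while from Csf2rb downward each gene's 3 values overlapped those of the next gene. In Normal the order was Csf1r, Csf2ra, Csf1, Il34, Csf3, Csf3r, Csf2rb2 and Csf2rb. There Il34 overlapped Csf3, and Csf3r, Csf2rb2 and Csf2rb overlapped one another in turn, but the other neighbours did not overlap. Csf2rb, last in Normal, was the third in PVR.

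The genes most like Csf1 over the 6 libraries were Hs2st1, a heparan sulfate sulfotransferase gene (Pearson r = 0.999), the MHC class I light chain gene B2m (0.999) and 5031439G07Rik (0.999). Those most like Il34 were Cdca7l (0.998), Pkia, which encodes an inhibitor of protein kinase A (0.995), and Stambpl1 (0.993). As with Csf1r, these coefficients describe 6 libraries that differ mainly by condition.

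Of 30 tested genes that relay the CSF1R signal or act with it in myeloid cells, 20 rose, 1 fell and 9 were not called, with a median log2 change of 1.56. Among all genes tested 17.9% rose and 12.9% fell. The tyrosine kinase gene Syk had 1284, 960.1 and 641 normalised counts in PVR and 76.3, 69.5 and 60.7 in Normal (log2 change 3.74). Runx1, a transcription factor gene of blood cell development, averaged 763 ± 173 in PVR and 78.8 ± 14.8 in Normal. The guanine nucleotide exchange factor gene Vav1 averaged 240.7 ± 97.9 in PVR and 9.53 ± 1.86 in Normal, and the small GTPase gene Rac2 averaged 329 ± 144 in PVR and 7.35 ± 3.37 in Normal. Src, which encodes a tyrosine kinase present in most cells, was the one that fell (1908 ± 316 in PVR, 2962 ± 373 in Normal, log2 change -0.64, limma adjusted p = 0.00804). Many of these genes are expressed mainly by leukocytes, and the macrophage markers rose in the same libraries.

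**Figure D4:**
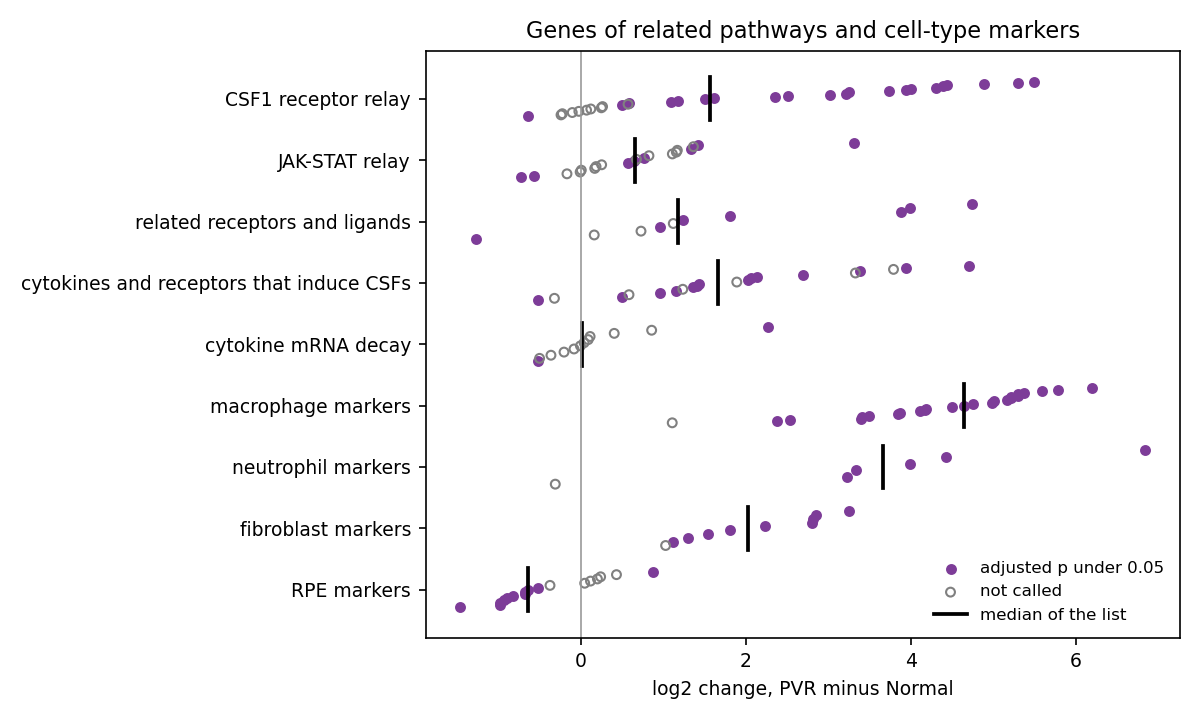
Log2 change (PVR minus Normal) of each tested gene of 9 lists, filled where the limma adjusted p was under 0.05, with a black line at each list's median. The CSF1 receptor relay list has its median at 1.56, the macrophage list at 4.64 and the RPE list at -0.64.

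The JAK-STAT genes used by the GM-CSF and G-CSF receptors moved less evenly. Of 20 tested, 6 rose, 2 fell and 12 were not called, with a median log2 change of 0.66, and by limma-voom 10 rose. The shares over all genes tested were 17.9% higher and 12.9% lower. Cebpa, a transcription factor gene of the myeloid lineage, averaged 772 ± 277 in PVR and 73.3 ± 10.2 in Normal (log2 change 3.31, limma adjusted p = 0.000127). The receptor-bound kinase genes Jak1 (2036 ± 307 in PVR, 1188 ± 141 in Normal) and Jak2 (829 ± 118 in PVR, 554 ± 14.9 in Normal) rose. Stat5b, a main transducer of the GM-CSF signal, fell (1198 ± 117 in PVR, 1766 ± 88.6 in Normal, log2 change -0.56, limma adjusted p = 0.00333). Stat5a, named after its values were seen, was not called (490 ± 47.2 in PVR, 429 ± 5.14 in Normal, limma adjusted p = 0.259). The survival kinase gene Pim2 also fell (176.6 ± 41.3 in PVR, 290.6 ± 53.4 in Normal), but that call was lost without PVR replicate 1 or 2 or Normal replicate 1 or 2, each of which left 1 lower gene. Stat3, through which G-CSF signals, also rose (log2 change 1.43, limma adjusted p = 0.00946, and 0.0756 with replicates 1 and 2 only) and is named after its values were seen.

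Of 10 tested relatives of the receptors and ligands, 6 rose and 1 fell (17.9% and 12.9% over all genes tested), with a median log2 change of 1.18. Besides Csf2rb2, the interleukin 3 receptor alpha gene Il3ra rose (163 ± 73.4 in PVR, 10.4 ± 5.98 in Normal, log2 change 3.87), as did Pdgfra, which encodes a receptor kinase of the same class as CSF1R (442 ± 36.7 in PVR, 128 ± 36.0 in Normal). Kit, the stem cell factor receptor gene and a close relative of Csf1r, fell, with each PVR library below each Normal library (210.1, 194 and 243 in PVR, 545, 529 and 483 in Normal, log2 change -1.27, limma adjusted p = 0.000186). Other IL-34 binding proteins are syndecan 1 and a receptor phosphatase, and their genes are named here after their values were seen. Sdc1, the syndecan 1 gene, rose (314 ± 101 in PVR, 133 ± 42.5 in Normal, limma adjusted p = 0.0125, and 0.0603 with replicates 1 and 2 only). Ptprz1, the phosphatase gene, had 53.5, 36.4 and 69.9 in PVR and 13.4, 82.4 and 25.4 in Normal (limma adjusted p = 0.404), and was called higher without Normal replicate 2 (0.0334).

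Cytokine and receptor genes known to induce CSF genes rose in large part. Of 20 tested, 13 rose and 1 fell, against 17.9% and 12.9% over all genes tested, with a median log2 change of 1.66. Tnfrsf1a, the main TNF receptor gene, averaged 2881 ± 260.4 in PVR and 1290.4 ± 64.2 in Normal (limma adjusted p = 9.00e-05). The pattern recognition receptor gene Tlr2 averaged 721 ± 276 in PVR and 105 ± 11.0 in Normal. Il6ra and Il4ra, the alpha chain genes of the interleukin 6 and interleukin 4 receptors, averaged 179.7 ± 80.5 and 1103 ± 362 in PVR, against 15.0 ± 2.94 and 261 ± 38.7 in Normal. The interleukin 17 receptor gene Il17rc fell (349 ± 37.9 in PVR, 503 ± 76.1 in Normal), a call lost without PVR replicate 2 or Normal replicate 1 or 2, which left 0 lower genes.

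Tnf and Il1b, named after their values were seen, were not called. Tnf had 1245, 223 and 83.1 normalised counts in PVR and 35.04, 25.9 and 8.16 in Normal (limma adjusted p = 0.0549, and 0.000556 with the replicate block and 0.012 by edgeR). Il1b had 619, 194 and 130.3 in PVR and 75.2, 36.1 and 4.53 in Normal (limma adjusted p = 0.0834, and 0.000824 with the replicate block and 0.0261 by edgeR). In both groups replicate 1 was the highest and replicate 3 the lowest for these genes. PVR replicate 1 was also the library with the most Csf3. In Normal Csf3 was highest in replicate 2 (19.4, against 10.3 and 10.9 in replicates 1 and 3). A link between Tnf or Il1b and Csf3 was not tested. Il1a and Il6, also named after their values were seen, were called higher. Il1a averaged 553.5 in PVR and 18.01 in Normal (limma adjusted p = 0.0102). Il6 averaged 150.6 in PVR and 53.53 in Normal (limma adjusted p = 0.0474). The Il6 call was lost in several alternatives, among them without PVR replicate 1 (0.101) and by limma-voom (0.0653).

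Genes for proteins that bind and break down short-lived cytokine mRNAs changed little as a list. Of 12 tested, 1 rose and 1 fell, against 17.9% and 12.9% over all genes tested, with a median log2 change of 0.02. Zc3h12a, which encodes the endonuclease Regnase-1, rose (761 ± 305 in PVR, 152 ± 38.2 in Normal, log2 change 2.27, limma adjusted p = 0.000954). Tia1, which encodes an RNA-binding protein, fell (823 ± 89.2 in PVR, 1187 ± 221 in Normal), a call lost on leaving out PVR replicate 1 or 3 or Normal replicate 1 or 2. Lower genes numbered 0 without PVR replicate 1 or 3 or Normal replicate 1, and 2 genes were higher without Normal replicate 1. Hnrnpd (1133 ± 155 in PVR, 1449 ± 127 in Normal, limma adjusted p = 0.0572) was called lower with the replicate block (0.0211), which gave 2 lower genes. Cnot7 averaged 1185 ± 42.3 in PVR and 1362 ± 20.2 in Normal (limma adjusted p = 0.127).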

How the data were processed

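RNA of 6 libraries was compared, 3 PVR and 3 Normal, with groups and replicate numbers from the titles. The labels name no batch. Each deposited value is a signal, the read count of a gene over a size factor that the authors applied to the library. This follows from the values, of which 100% were whole multiples of 1 step within 0.001 reads, and recomputed median-ratio factors were equal to it (ratio 1). The submitters' processing notes name mm10 and DESeq2 but give them no role. No source used here states the aligner, the counter, strand use or the gene annotation.

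Genes were tested with limma 3.58.1 in R 4.3.3 on log2(deposited normalised count + 1), with trend and robust moderation. The 15766 genes passing filterByExpr (minimum count 10) entered, and Benjamini-Hochberg adjustment ran over all of them at 0.05. On the recovered reads edgeR 4.0.16 called 2788 genes higher and 1907 lower, DESeq2 1.42.0 called 2889 and 1935, and limma called 2825 and 2033. Other alternatives were limma-voom, pseudocounts of 0.5 and 5, no filter, a filter at 1 CPM, library-total scaling, a replicate block and left-out libraries. The procedure was tested on simulated data. Ratios were compared by an exact permutation test. Levels per kilobase used the union of GENCODE M21 exons, which 27362 gene names matched.

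Same-numbered PVR and Normal libraries deviated together from their group means (r = 0.237, 0.230 and 0.181 for numbers 1 to 3). The replicate block, an alternative fit, therefore took the numbers as pairs, although the labels do not say what they share. The main limma test and the permutation tests were unpaired. No 2 libraries of a group were alike within sampling noise (chi-square per gene 17.8 to 30.2).

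The members and lists were chosen with earlier results of these data known, and the promoter motifs with the sequences in view. Named genes were the members, Csf2rb2, the 4 genes of each pathway list with the smallest p, called genes of the opposite direction, up to 3 abundant genes of a marker list, and the 3 genes most correlated with Csf1, Il34 and Csf1r. Exceptions are stated where they occur.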

Additional observations from a re-analysis of the deposited data

How the results depend on the processing

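Csf1, Il34, Csf2ra, Csf2rb, Csf2rb2 and Csf3r kept their direction and call in all 17 alternatives. Csf1r lost its call in 3 of 17 (log2 change -0.56 to -0.34 over all) and Csf3 in 5 (1.16 to 2.23). Leaving out single libraries gave 5 to 6 members higher and 0 to 1 lower, with 0 lower without PVR replicate 1, PVR replicate 2 or Normal replicate 3. Over all genes the same step gave 2193 to 2844 higher and 1307 to 2026 lower, the lowest count of lower genes without Normal replicate 1. The log2 difference in the Csf1 to Il34 ratio ranged from -0.44 to 0.17 without single libraries and was 0.0521 with a pseudocount of 5. The cause of these changes was not tested. With the replicate block 3079 genes were higher and 2249 lower, against 2825 and 2033 without it, and 6 members were higher and 1 lower, so the pairing changed no call of a member. Scaling to library totals shifted the median log2 change of all genes by -0.07 and turned no member's direction, with Csf1r at -0.52. Il34, Csf3 and the Normal values of Csf2rb and Csf3r rest on few reads, which limits their precision.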

Other observations

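Markers of further blood cell types were also measured. Only Cd4 of the 12 lymphocyte markers measured had enough reads to be tested, and the list summed to 61.5 to 95.8 normalised counts in PVR and 12.97 to 37.1 in Normal. Mast cell, basophil and eosinophil markers summed to 145 to 228 in PVR and 246 to 320.4 in Normal. Siglecf made up most of that sum (mean 114.6 in PVR, 269.6 in Normal). It was the 1 marker of 8 with all PVR values below Normal, while 4 had all PVR values above Normal. The shares over all genes tested were 23.3% below and 24.7% above, and only 2 of these 8 markers had enough reads to be tested. Monocyte markers summed to 4478 to 10065 in PVR and 487 to 984 in Normal. Among the 7 tested 5 were higher and 1 lower, against 17.9% and 12.9% over all genes tested. Most of the PVR sum was Fn1, a matrix gene that many cells express (6296, 8333 and 3884 in PVR, 377, 484 and 236 in Normal), and the median monocyte marker stood at 36.4 to 80.3 in PVR and 8.61 to 26.8 in Normal. Fibroblast markers rose in the same libraries, and their part in the Fn1 values was not tested. Dendritic cell markers summed to 2953 to 5433 in PVR and 432 to 923 in Normal. Cd74, H2-Ab1 and H2-Aa made up most of the PVR sum (means of 2017, 773 and 696). The median dendritic marker stood at 20.5 to 55.1 in PVR and 3.63 to 7.21 in Normal. Of 7 tested 6 rose, among them Flt3, named after its values were seen, a receptor gene related to Csf1r (26.8, 18.2 and 14.2 normalised counts in PVR, 1.03, 0 and 0 in Normal). With 1, 0 and 0 reads in Normal, Flt3 could pass the filter only through its PVR reads.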
